A study of Mus musculus with 16 samples.

Results

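The growth hormone, IGF-1 and STAT5 axis was followed through 10 genes, namely Ghr, Jak2, Stat5a, Stat5b, Igf1, Igfals, Igf1r, Socs2, Bcl6 and Cux2, in lists of N6-methyladenosine (m6A) peaks from mouse liver. A peak belonged to the axis if the list gave it the name of one of these genes, and 57 of 77183 peaks did so. The genes were picked with their presence in the lists already known, because Ghr and Bcl6 had peaks in fewer mice on the high-fructose diet. Their presence by diet is therefore described and not tested. At least 1 peak was found for 8 of the 10 genes, among 7693 genes with a peak in the series, while Socs2 and Cux2 had none in any mouse.

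The lists came from male C57BL/6J mice (C57BL/6 in the labels) aged 10 to 11 weeks that were fed for 2 weeks either a high-fructose diet (HFrD), in which carbohydrate supplied 70%, fat 10% and protein 20% of the energy, or a normal diet (ND). The study used the HFrD as a model of non-alcoholic fatty liver disease and asked which transcripts changed in m6A. No allele, transgene or drug was used in these groups, and RNA came from whole liver, so all cell types of the organ contributed. In methylated RNA immunoprecipitation sequencing (MeRIP-seq), RNA fragments were enriched with an antibody against m6A and sequenced beside input RNA, which gave 16 libraries, 4 immunoprecipitated and 4 input for each diet. One peak list was analysed for each of 8 mice, numbered HFrD 1, 2, 5 and 7 and ND 1, 3, 6 and 7.

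m6A is a methyl mark placed on adenosines of messenger RNA, mostly within a short sequence context and often in long internal exons and near stop codons, and it can alter the stability and translation of the transcript. Growth hormone binds its receptor GHR on hepatocytes and activates the kinase JAK2, which phosphorylates STAT5A and STAT5B. These transcription factors then switch on genes such as Igf1, Igfals and Socs2. IGF-1 leaves the liver as the main circulating growth factor of the axis, the acid-labile subunit encoded by Igfals keeps it in the blood, and IGF1R is its receptor on target cells. SOCS2 damps the receptor, and the repressors BCL6 and CUX2 are known in rodent liver for male-biased and female-biased expression under the sex-specific rhythm of growth hormone.

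Peaks of the axis were merged into 17 regions, out of 17526 regions in the series, and 16 of the 17 lay within a single exon. The sequences that follow come from the regions found in at least 2 more mice of one diet, and from the most frequent regions of Igf1 and Igfals. All were read from the RefSeq GRCm38.p6 genome, the assembly of mm10, on the strand of the gene and from 5′ to 3′, with T for U. The first set gives the motif nearest the middle of 6 regions, with GGACT in capitals, or GGAC where GGACT was not in the region. A match shows only that these letters are there, and the methylated base was not measured.
Ghr exon 11, chr15:3318299-3318319, minus strand: gagaaagaGGACTctcagctg
Jak2 exon 20, chr19:29300945-29300965, plus strand: ccgctgcaGGACaacactggc
Jak2 exon 22, chr19:29302013-29302033, plus strand: ttgccgcaGGACaaagaatac
Igf1 exon 4, chr10:87915482-87915502, plus strand: gggatgaaGGACgtgcgggaa
Igfals exon 2, chr17:24881539-24881559, plus strand: aacccctgGGACTgcagttgt
Bcl6 exon 5, chr16:23972280-23972300, minus strand: agtggggaGGACTctaccatc

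The Ghr and Igf1 windows lay in the 3′ untranslated region (3′ UTR), and those of Jak2, Igfals and Bcl6 in coding sequence. For Igf1, the exon number and the position are those of a short Ensembl transcript model. The next pair gives the whole of 2 Stat5b exons, because exon 2 had a peak in HFrD mice alone and exon 9 in ND mice alone. Capitals mark every DRACH, the general m6A context of A, G or T, then A or G, then AC, then A, C or T.
Stat5b exon 9, chr11:100797064-100797243, minus strand: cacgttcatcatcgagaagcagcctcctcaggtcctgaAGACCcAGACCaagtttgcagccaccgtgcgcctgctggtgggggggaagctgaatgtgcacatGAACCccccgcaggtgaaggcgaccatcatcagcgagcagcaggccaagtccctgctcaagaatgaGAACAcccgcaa
Stat5b exon 2, chr11:100808396-100808533, minus strand: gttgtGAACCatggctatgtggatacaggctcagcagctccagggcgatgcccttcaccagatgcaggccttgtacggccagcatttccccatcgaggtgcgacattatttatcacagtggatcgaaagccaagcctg

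Exon 9 held 4 DRACH and exon 2 held 1, which lies in the 5′ UTR just before the start codon. Neither exon held GGACT or GGAC.

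Sequencing depth is unknown because reads were not analysed here, and the length of a list is the only measure of yield. The lists held 8055 to 10093 peaks in HFrD mice and 8959 to 11517 in ND mice. The axis had 8, 7, 8 and 4 peaks in HFrD mice 1, 2, 5 and 7, against 6, 8, 8 and 8 in ND mice 1, 3, 6 and 7. Its mean was 6.75 ± 1.89 peaks in HFrD livers and 7.5 ± 1 in ND livers (SD, n = 4 each), a difference of -0.75 that was smaller than the spread within the HFrD group. As a share of its list, the axis took 0.0734% in HFrD mice and 0.0738% in ND mice on average. Genes of the axis with a peak numbered 5, 4, 4 and 3 in HFrD mice, against 5, 5, 4 and 5 in ND mice. The ranges of the diets overlapped for both counts, and HFrD mouse 7, with the shortest list of all, held the fewest.

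**Figure D1:**
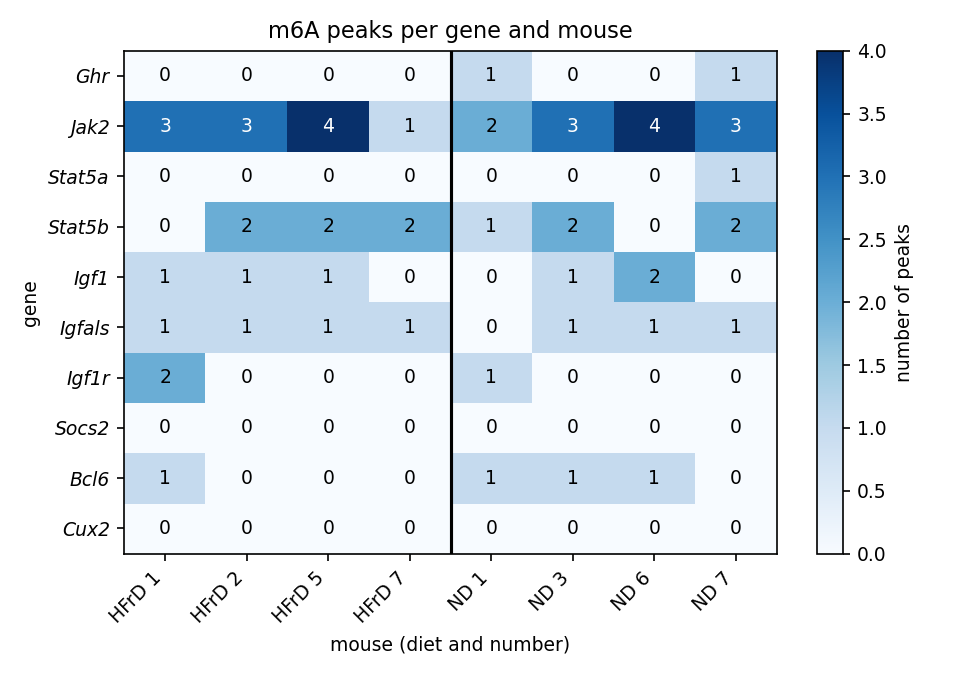
Number of m6A peaks of each gene (rows, in the order receptor, kinase, transcription factors, ligand, carrier, receptor, inhibitor, repressors) in each mouse (columns, HFrD left of the line and ND right of it), with darker cells for more peaks. Jak2 is filled in all 8 mice, Ghr and Stat5a are empty in all HFrD mice, and Socs2 and Cux2 are empty throughout.

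Of the 8 genes with a peak, none was found in at least 2 more HFrD mice than ND mice, and Ghr and Bcl6 (25%) were found in at least 2 more ND mice. Over all 7693 genes, 4.61% were found in at least 2 more HFrD mice and 11.3% in at least 2 more ND mice. With every list cut to the length of the shortest, 492 genes were found in at least 2 more HFrD mice and 559 in at least 2 more ND mice. The full lists gave 355 genes in at least 2 more HFrD mice and 870 in at least 2 more ND mice, so the excess on the ND side was smaller at equal length. Because the genes were picked on this contrast, nothing is read from their share. Stat5a was found in 1 ND mouse alone, and 14.2% of all genes were likewise found in a single mouse. Jak2, Stat5b and Igf1r were found in as many mice of each diet, which was also the most common case in the series, at 50.5% of genes. Igf1 and Igfals were found in 1 more HFrD mouse. Counting any difference, more HFrD than ND mice held a peak for 17.7% of all genes, and fewer did for 31.8%. Fisher's exact test with Benjamini-Hochberg adjustment was run over the 2839 genes that could be tested. By this test 0 genes differed at an adjusted p under 0.05. An unadjusted p under 0.05 was reached by 40 genes (1.41%), and the smallest possible p was 0.0286. Genes could pass the adjustment only if a large share of those tested reached this smallest p. The 0 therefore reflects the size of the groups and does not show that genes were unchanged.

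**Figure D2:**
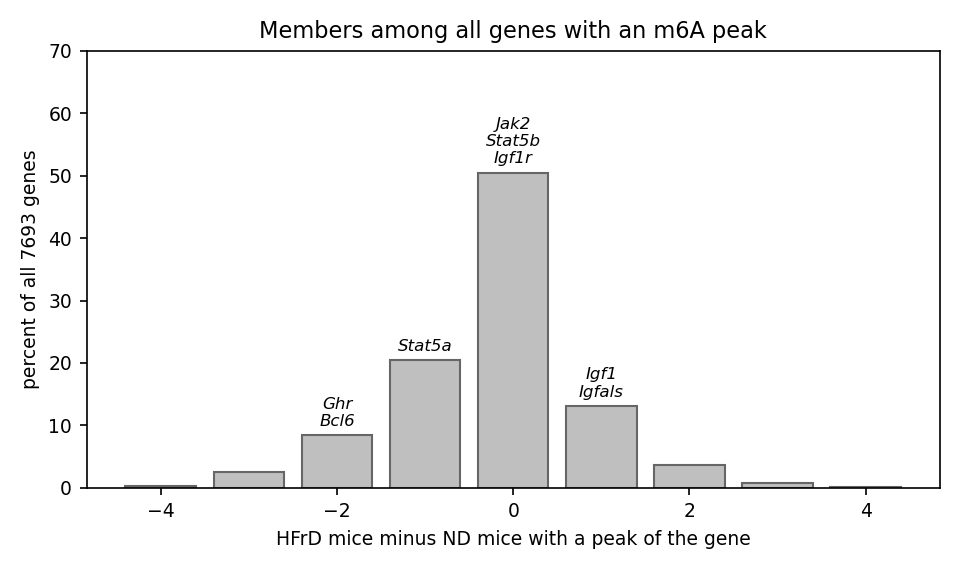
Percent of all 7693 genes with a peak (vertical axis) against the number of HFrD mice minus the number of ND mice in which the gene had a peak (horizontal axis), with the genes of the axis written above their bar. Ghr and Bcl6 stand at -2, in the tail that holds 11.3% of genes, and the other 6 lie between -1 and 1.

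Ghr, the growth hormone receptor and the entry point of the axis, had no peak in any of the 4 HFrD mice and 1 peak each in ND mice 1 and 7. Both peaks covered the same stretch, the whole of the last exon (exon 11 of 11, chr15:3317755-3320722, minus strand, 2968 bp), which holds 981 coding nucleotides and the 3′ UTR. Peaks were scored by the peak caller as -10 times log10 of their p-value, and no list went below a score of 50. Ghr scored 61.3 in ND mouse 1 and 152 in ND mouse 7. Since separate lists do not share a scale, scores were read as percentiles within their list, from 0 for the weakest to 100 for the strongest peak. Ghr stood at percentile 9.35 in ND mouse 1 and at 40.4 in ND mouse 7, so the first of its peaks was just inside the limit of the lists. Fold enrichment, the ratio of immunoprecipitated to background signal given with each peak, was 6.58 and 6.72 in these mice. With a score of at least 100, or with every list cut to the length of the shortest, Ghr was left with 0 HFrD mice and 1 ND mouse. ND mouse 7 had the longest list and ND mouse 1 the shortest list of its group. A peak can be missing because the transcript was scarce or the library shallow as well as because it was less methylated, and in whole liver fewer cells of a type and less RNA per cell cannot be told apart; input levels were not analysed here.

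Jak2, the kinase bound to the receptor, was the one gene of the axis with a peak in all 8 mice, as were 39.6% of genes in the series. It had 3, 3, 4 and 1 peaks in HFrD mice 1, 2, 5 and 7, against 2, 3, 4 and 3 in ND mice 1, 3, 6 and 7. They fell on 5 of its last exons (exons 20, 22, 23, 24 and 25 of 25), and which exon was called differed between mice. Exon 20 (chr19:29300909-29301098, plus strand) had a peak in 4 HFrD mice, at percentiles 31.8, 54.3, 40.9 and 47.4, and in 2 ND mice, at 15.9 in ND mouse 6 and 58.0 in ND mouse 7. Exon 22 (chr19:29301899-29302071) went the other way, with a peak in HFrD mouse 5 alone at percentile 23.5, against 24.0, 38.9 and 33.8 in ND mice 1, 3 and 6. The percentiles of the diets overlapped at exon 20, and at exon 22 the HFrD peak ranked just under the ND ones. Both exons lie in the coding sequence, and their sequences given above hold GGAC but not GGACT.

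Jak2 exon 24 (chr19:29310928-29311041), whose middle lies within 200 nt of the stop codon, was found in 7 mice. Its percentiles were 7.85, 48.2 and 63.0 in HFrD mice 1, 2 and 5, against 37.3, 21.2, 5.56 and 22.8 in ND mice 1, 3, 6 and 7. The ends of this range, scores of 57.3 in HFrD mouse 1 and 56.9 in ND mouse 6, were among the weakest peaks of the axis, so the same exon ran from near the calling limit to percentile 63.0 in HFrD mice and to 37.3 in ND mice. Exon 23 (chr19:29309595-29309712) was found in 2 mice of each diet. Exon 25 (chr19:29311741-29313080), which carries the stop codon and the 3′ UTR, was found in HFrD mouse 1 and ND mouse 6.

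Stat5b, the main STAT5 protein of male mouse liver, had peaks in 3 mice of each diet, yet the exons differed. Exon 2 (chr11:100808396-100808533, minus strand), which holds the start codon, had a peak in HFrD mice 2, 5 and 7 at percentiles 38.7, 27.4 and 21.7, and in no ND mouse. Exon 9 (chr11:100797064-100797243), in the coding sequence, had a peak in no HFrD mouse and in ND mice 1, 3 and 7 at percentiles 14.2, 33.3 and 65.1. Fold enrichment was 8.10, 8.92 and 6.18 at exon 2 in the HFrD mice, and 4.66, 5.74 and 6.11 at exon 9 in the ND mice. Exon 1 of an Ensembl transcript model (chr11:100850399-100850724), in the 5′ UTR, was shared, at percentiles 38.1, 42.9 and 41.8 in HFrD mice 2, 5 and 7 and at 43.7 and 41.5 in ND mice 3 and 7. Thus the same 3 HFrD mice held exons 1 and 2 together, ND mice 3 and 7 held exons 1 and 9, and HFrD mouse 1 and ND mouse 6 held no Stat5b peak.

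Among all regions, 1.89% were found in 3 mice of one diet and 0 of the other, as Stat5b exons 2 and 9 were. Of 3928 genes with at least 2 regions, 5 (0.127%) held both a region in 3 or 4 HFrD mice and 0 ND mice and a region in 0 HFrD mice and 3 or 4 ND mice, and these were Ate1, Fmr1, Kdm5b, Scd3 and Stat5b. Under the looser limit of at least 2 more mice in each direction, 4.12% of these genes qualified, and Jak2 joined Stat5b through its exons 20 and 22. The Stat5b exons were noticed after their values were seen, and these shares are a description. With a score of at least 100, exon 2 kept 1 HFrD mouse and exon 9 kept 2 ND mice.

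Stat5a, the close relative of Stat5b, was found in no HFrD mouse and in ND mouse 7 alone, which also had the longest list. Its region (chr11:100874003-100875215, plus strand) ran over exons 6 to 8 with the introns between them, scored 57.5, and stood at percentile 5.37. Its exonic bases were 99.3% identical to Stat5b messenger RNA, with a longest identical run of 324 nt. Stat5b exon 9 was in turn 98.9% identical to Stat5a, with a longest run of 95 nt, while exon 2 was 80.5% identical over the 92.8% of it that aligned and its longest run was 20 nt. The identical run in Stat5a was longer than a read of 150 bp, so the Stat5a peak is uncertain between the paralogs. The Stat5b exon 9 peaks are uncertain too, since only 2 of 180 nt there differ from Stat5a, whereas exons 1 and 2 differ more.

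**Figure D3:**
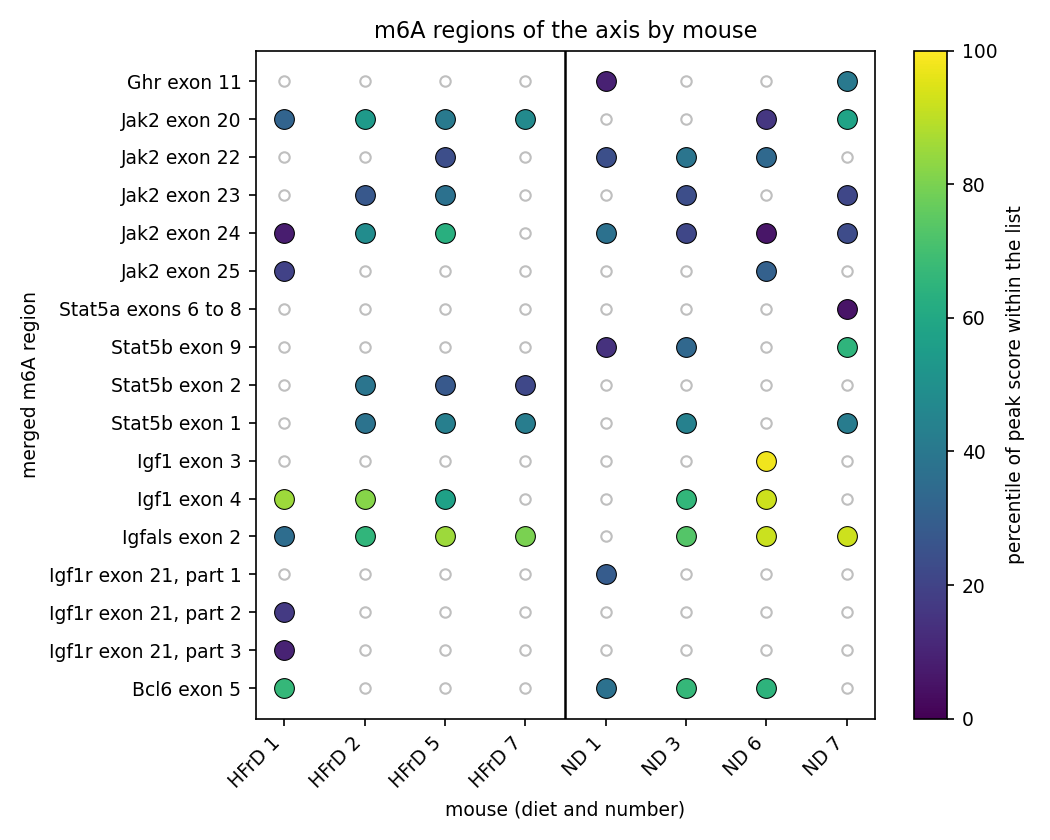
Each of the 17 regions (rows) in each mouse (columns, HFrD left of the line and ND right of it), where a filled point is a peak coloured by the percentile of its score within the list and a small open ring means no peak. Stat5b exon 2 is filled in 3 HFrD mice and no ND mouse, Stat5b exon 9 in 3 ND mice and no HFrD mouse, and Igf1 and Igfals hold the brightest points.

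Igf1, the secreted ligand made by the liver under STAT5, had a peak in HFrD mice 1, 2 and 5, against ND mice 3 and 6. The shared region (chr10:87915298-87915894, plus strand) was the last exon of a short Igf1 transcript model and includes its stop codon. Its percentiles were 85.2, 81.8 and 57.2 in the HFrD mice, against 65.8 and 92.2 in the ND mice. Fold enrichment was 15.1, 13.9 and 16.4 in the HFrD mice, against 14.7 and 15.4 in the ND mice. These ranges overlapped, and Igf1 had the highest fold enrichment of the axis in both diets. Exon 3 (chr10:87913619-87913800) was found in ND mouse 6 alone at percentile 97.9, the strongest peak of the axis by score. That score, 3100, was the same for 393 peaks of the ND mouse 6 list, so their order is not resolved. The long last exon of the main Igf1 transcript had no peak in any list.

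Igfals, which encodes the acid-labile subunit that holds IGF-1 and its binding protein in the circulation, had 1 peak in all 4 HFrD mice and in ND mice 3, 6 and 7. Each peak had the same ends and ran over exon 2 of 2 (chr17:24879953-24882008, plus strand), which holds nearly all of the coding sequence. Its percentiles were 35.2, 65.5, 85.2 and 80.1 in HFrD mice 1, 2, 5 and 7, against 73.2, 92.0 and 92.6 in ND mice 3, 6 and 7. HFrD mouse 1 ranked lowest, and the other 6 mice stood above the middle of their list. Fold enrichment was 4.40, 4.52, 7.06 and 4.37 in the HFrD mice and 7.11, 5.07 and 5.04 in the ND mice. Because these folds sat close to 5, requiring a fold enrichment of at least 5 left Igfals in 1 HFrD mouse and 3 ND mice, and its difference turned to -2.

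Igf1r, the receptor that carries the IGF-1 signal in other tissues and is scarce on hepatocytes, was found in HFrD mouse 1 with 2 peaks and in ND mouse 1 with 1. All lay in its long last exon (exon 21 of 21) at separate places. The HFrD peaks were deep in the 3′ UTR (chr7:68230559-68231374 and chr7:68231449-68232034, percentiles 17.0 and 9.75), and the ND peak spanned the stop codon (chr7:68226020-68226772, percentile 28.9). No base of Igf1r was called in more than 1 mouse.

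Bcl6, a repressor that acts against STAT5 at many liver genes in mice, was found in HFrD mouse 1, against ND mice 1, 3 and 6. The region was exon 5 of 10 (chr16:23972245-23973219, minus strand) in the coding sequence, and the peak of ND mouse 1 covered 873 bp of it. Its percentile was 66.6 in HFrD mouse 1, against 37.5, 66.5 and 64.7 in the ND mice, and its fold enrichment was 12.9 in HFrD mouse 1, against 8.88, 7.62 and 8.77 in the ND mice. The single HFrD peak thus ranked with the highest of the ND mice, and the picture of Bcl6 by diet rests on the number of mice with a peak. In its RNA sequencing, the study listed Bcl6, and also Igfals, among genes with lower expression in HFrD livers. The part of RNA level in the presence of their peaks was not tested. ND mouse 7, with the longest list of all, had no Bcl6 peak. Socs2, the feedback inhibitor, and Cux2, the female-biased repressor, had no peak under their symbols or synonyms, and no peak of another name lay at their loci.

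The patterns of presence were shared by few to many other genes. Ghr had the same presence over the 8 mice as 28 other genes, Bcl6 as 13 (among them the STAT5-dependent gene Cyp8b1), Stat5b as 12, Igf1 as 3 and Igfals as 78. No gene of the wider pathway lists shared the pattern of Ghr.

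**Figure D4:**
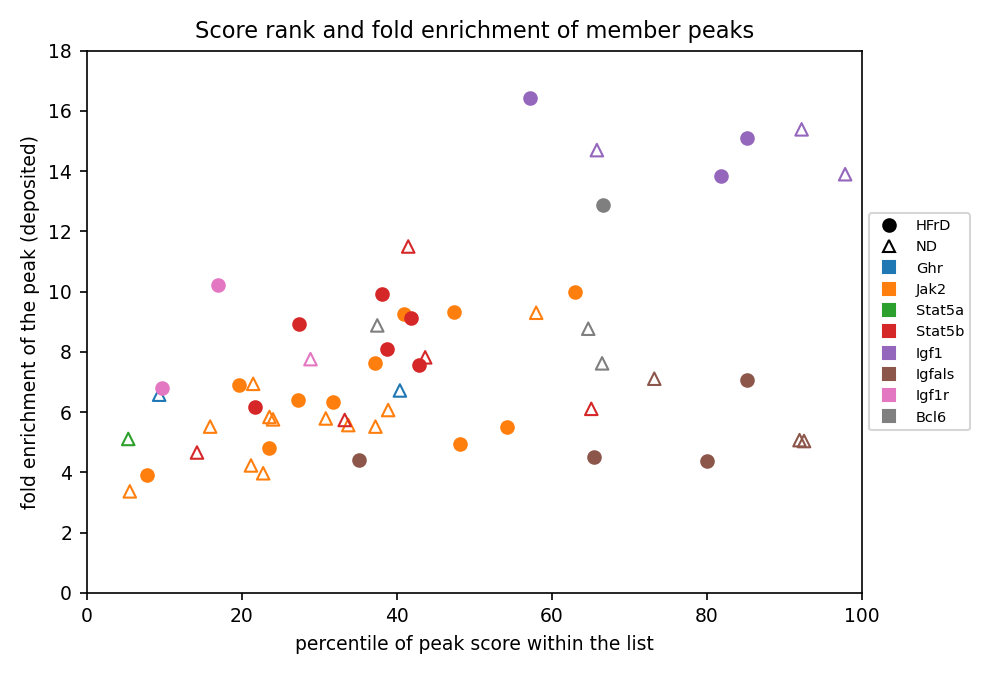
Fold enrichment (vertical axis, a ratio) against the percentile of score within the list (horizontal axis) for the 57 peaks of the axis, with filled circles for HFrD and open triangles for ND and a colour for each gene. Igf1 sits at the top with folds of 13.9 to 16.4, Igfals has folds of 4.37 to 7.11 at percentiles of 35.2 to 92.6, and Ghr and Stat5a lie in the lower left.

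At the level of regions, 2 of 17 (11.8%), Jak2 exon 20 and Stat5b exon 2, were found in at least 2 more HFrD mice, beside 5.24% of all regions. Another 4 (23.5%), namely Ghr exon 11, Jak2 exon 22, Stat5b exon 9 and Bcl6 exon 5, were found in at least 2 more ND mice, beside 11.8% of all regions, a contrast that the choice of Ghr and Bcl6 also shaped. No region of the axis was found in all 8 mice, as 24.9% of all regions were, and 2 were found in 7 mice, Jak2 exon 24 and Igfals exon 2. A single mouse accounted for 5 regions (29.4%), near the 24.4% of all regions.

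Position and sequence were not used to pick the genes. Midpoints of the 57 peaks lay in the coding sequence for 28 peaks (49.1%), beside 48.0% of all peaks, and in the segment within 200 nt of the stop codon for 14 (24.6%), beside 12.6%. The stop codon peaks came from Jak2 exon 24, the last exon of the short Igf1 model, Igf1 exon 3 and Igf1r, so few genes stand behind that share. The segment within 200 nt of the start codon held 8 peaks (14.0%), all of Stat5b, beside 24.7% of all peaks, and the 3′ UTR held 6 (10.5%), beside 9.69%. Peaks of one gene are not independent, so these shares were not tested.

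**Figure D5:**
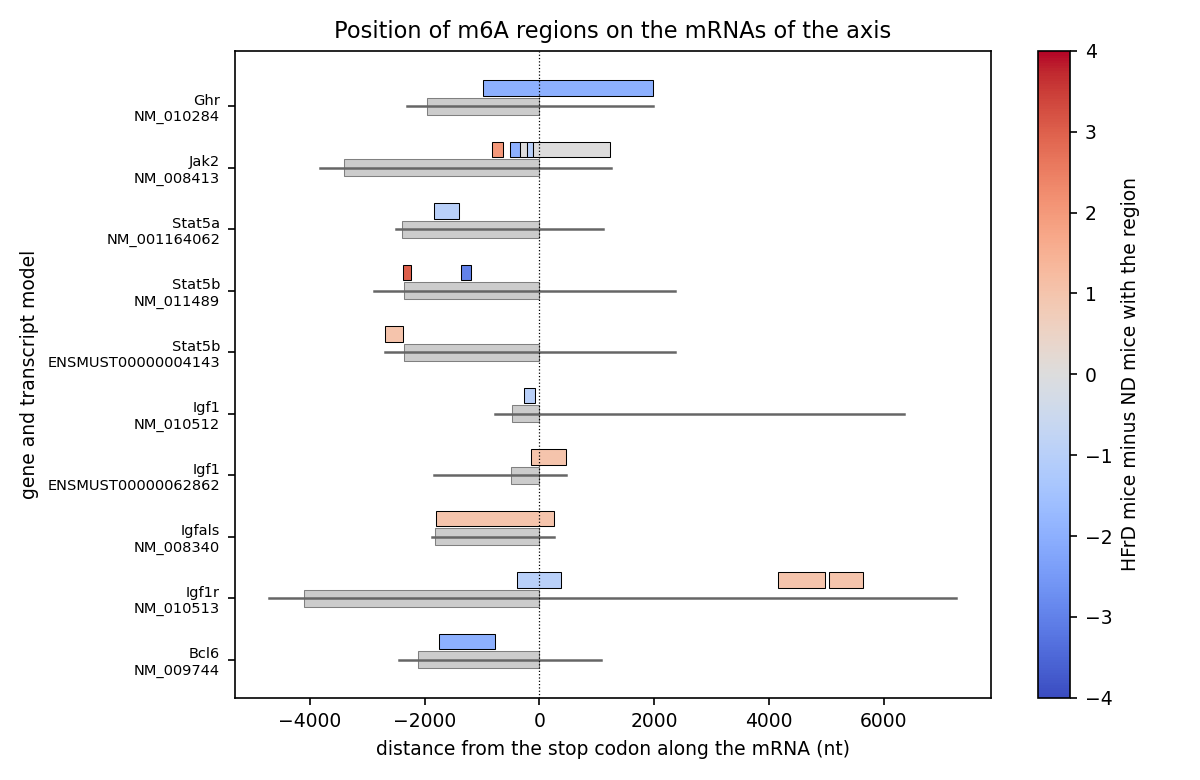
Regions of the axis (coloured boxes) drawn above the transcript model (line, with the coding sequence as a grey box) by distance from the stop codon in nucleotides, with red for more HFrD mice and blue for more ND mice. Jak2 regions crowd before the stop codon, Stat5b regions lie at the start and middle of the coding sequence, and the Ghr region covers the stop codon and the 3′ UTR.

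The boundaries of most peaks followed exons. Of the 57 peaks, 43 (75.4%) covered a whole exon, beside 67.6% of all peaks with a transcript model, so most peaks give the exon and not the place within it. The Igf1r peaks were exceptions that lay at separate places in a single long exon. The median length was 326 bp, beside 296 bp over all peaks, and the median fold enrichment was 6.81, beside 7.76. The median percentile of the axis was 38.7, and 20 peaks (35.1%) scored under 100, beside 30.2% of all peaks. Lowest of all were Jak2 exon 24 in ND mouse 6 and HFrD mouse 1, Stat5a in ND mouse 7, an Igf1r peak in HFrD mouse 1 and Ghr in ND mouse 1.

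GGACT, searched on the strand of the gene, was present in 5 of the 17 regions (29.4%), beside 35.1% of 17196 regions with exonic sequence, and every region of the axis held a DRACH, beside 95.2%. Ghr exon 11, Igfals exon 2, Bcl6 exon 5 and both 3′ UTR regions of Igf1r held GGACT, while the Jak2 exons 20, 22 and 24 and all 3 Stat5b exons did not. Of the 7 regions of the axis under 200 nt, 0 held GGACT, beside 10.9% of all regions that short. GGACT stood at 0.502 per 1000 nt in the axis and at 1.17 over all regions, and DRACH at 21.1 and 20.4 per 1000 nt.

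Around the axis, lists of 72 further genes of the pathway were read in the same way, and 35 of them had a peak. Of these, 0 were found in at least 2 more HFrD mice, beside 4.61% of all genes, and 8 (22.9%) in at least 2 more ND mice, beside 11.3% of all genes, while 19 were found in as many mice of each diet. Among 8 neighbouring receptors, kinases and STAT proteins, 6 had a peak. The insulin receptor Insr was found in 0 HFrD and 3 ND mice, and Stat3, which carries the interleukin-6 signal in liver, in 1 HFrD and 3 ND mice. Among 12 adaptors and substrates, 10 had a peak, and Shc1 and Sh2b1, which link receptors and JAK2 to downstream pathways, were each found in 2 HFrD and 4 ND mice. The insulin receptor substrates Irs1 and Irs2 were found in all 8 mice.

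Among 14 inhibitors of cytokine receptor signalling, 11 had a peak, and the adaptor Sh2b3, which restrains JAK2, was found in 2 HFrD and 4 ND mice. Cish and Socs1, like Socs2, had no peak. Among 14 IGF carriers, binding proteins and their proteases, 5 had a peak, and Igf2r, which takes up and clears IGF-2, was found in 1 HFrD and 4 ND mice. Transcripts known in mice to follow the male or female rhythm of growth hormone were mostly without peaks, at 1 of 12 male-biased and 2 of 12 female-biased genes. Cyp7b1 was among those without a peak, although the study reported lower m6A of Cyp7b1 in HFrD livers. Cyp3a41a was found in 1 HFrD and 2 ND mice, and the study listed it among its most hypomethylated sites. The study compared sites between diets, which is another measure than presence in these lists. Cyp8b1, the sterol hydroxylase of cholic acid synthesis, was found in 1 HFrD and 3 ND mice, and the steroid hydroxylase Cyp2a4, which has near-identical neighbours, in 1 HFrD and 4 ND mice. No test of these lists was made.

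Cell type markers were read for peaks as well. Of 10 hepatocyte markers, 5 had a peak in any mouse, and 1 to 2 per HFrD mouse against 1 to 3 per ND mouse, with Alb, Cps1, Tat, Pck1 and Cyp2e1 at 0. Of 9 Kupffer cell and macrophage markers, 6 had a peak, with 2 to 4 in each HFrD mouse and also 2 to 4 in each ND mouse. Among them Marco was found in 4 HFrD and 0 ND mice, and Cd5l in 1 HFrD and 3 ND mice. The hepatocyte marker Foxa3 was found in 2 HFrD and 4 ND mice and the cholangiocyte marker Spp1 in 0 HFrD and 2 ND mice. Of 8 endothelial markers, 6 had a peak, with 4 to 6 in mice of either diet. Of 8 stellate cell and fibroblast markers, 6 had a peak, with 4 to 5 in HFrD mice and 4 to 6 in ND mice. Cholangiocyte markers had peaks for 2 of 6, with 1 in every HFrD mouse and 1 to 2 in ND mice, and lymphocyte and neutrophil markers for 3 of 6, with 2 to 3 in HFrD mice and 2 in every ND mouse. A peak is a mark on a transcript and not its level, so these counts cannot check the tissue label, and their part in the presence of Ghr or Bcl6 peaks was not tested.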

How the data were processed

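The submitters' processing notes name cutadapt 1.9.3 and HISAT2 2.0.4 and the build mm10 for reads of 150 bp. One list was deposited for each mouse. Per the study's methods, the authors found peaks with MACS and differential sites with diffReps and selected peaks on exons of messenger RNA. Whether diffReps bore on these lists is not stated. The version of diffReps was not given in the sources used here, nor were its settings beyond cutoffs on fold change and p-value. Deposited scores are -10 times log10 p, the deposited fold enrichment is a ratio, and the authors' false discovery rate, in percent, was not used. For peaks of the axis this rate was high. It ran from 56.1 for Igfals in ND mouse 7 to 100, the value of Ghr in ND mouse 1. Even the axis peak with the highest score, Igf1 exon 3 in ND mouse 6, had a rate of 63.4. The rate was not summarised over all peaks, so it cannot be called particular to the axis. Deposited starts fell on exon starts when counted from 0, and 1 was added before printing.

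The genes and lists were chosen with earlier results of these data known. The text names all 10 genes, the pathway genes found in at least 2 more mice of one diet, each gene's most frequent region and the regions found in at least 2 more mice of one diet. Genes were matched by symbol, and peaks overlapping by 1 bp in any list were merged. Each of 8 mice was 1 sample, and a gene or region counted as found where the mouse had a peak. A RefSeq or Ensembl transcript model of GRCm38 was matched for 98.4% of peaks. Fisher's exact test was two-sided and was tested on simulated data. Genes planted in all 4 mice of one diet and in none of the other were recovered at an unadjusted p under 0.05. Such a pattern always reaches that limit, so this checked only the running of the test, and the adjustment was not checked.

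Alternatives were a fold enrichment of at least 3 or 5, a score of at least 100, equal list lengths of 8055 peaks, each mouse left out, the replicate block, 50% coverage of a region, the exonic midpoint, the percentile of fold enrichment, and regions in at least 4 mice or reduced to shared bases. Python 3.11.15, numpy 2.4.6, pandas 2.3.3, scipy 1.17.1, biopython 1.88, pysam 0.24.0 and matplotlib 3.10.9 were used.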

Additional observations from a re-analysis of the deposited data

Results flagged for a closer look

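In groups of 4 mice, the gap of the highest or lowest mouse to its nearest neighbour was taken as a share of the range of the group. This share was compared with the 95% critical value of Dixon's test, and 11 of 33 groups passed it. The chance rate of the test, about 1 in 20, holds for continuous values and not for small counts, and groups without spread can never pass. No excess of outlying mice can therefore be read from the 11. For 10 of the 11 groups the counts were small whole numbers and 1 mouse differed from 3 that were equal, which gives a share of 1 whatever the size of the gap. Among HFrD mice these were the Stat5b peaks (0 in mouse 1, 2 in the others), the Igf1 peaks (0 in mouse 7, 1 in the others), the Igf1r peaks (2 in mouse 1, 0 in the others) and the Bcl6 peaks (1 in mouse 1, 0 in the others). Among ND mice they were the Stat5a peaks (1 in mouse 7, 0 in the others), the Igfals peaks (0 in mouse 1, 1 in the others), the Igf1r peaks (1 in mouse 1, 0 in the others), the Bcl6 peaks (0 in mouse 7, 1 in the others), the genes of the axis with a peak (4 in mouse 6, 5 in the others) and the peaks of the axis (6 in mouse 1, 8 in the others). The fold enrichment of Igfals exon 2 passed with a share of 0.944, at 7.06 in HFrD mouse 5 and 4.37 to 4.52 in the other HFrD mice.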

How the results depend on the processing

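With equal list lengths the difference in peaks of the axis (HFrD minus ND per mouse) was 0.75, and of all genes 492 were found in at least 2 more HFrD mice and 559 in at least 2 more ND mice (355 for HFrD and 870 for ND in the full lists). With a score of at least 100, 1 region of the axis and 234 of all genes were found in at least 2 more HFrD mice. The numbers 1 and 7 occur in both diets, and the labels do not say what a number means. Deviations of same-numbered mice correlated at 0.0437 and -0.0409, beside -0.0365 and 0.0310 for mice 1 and 7 crossed between diets. These values cannot exclude a shared litter, cage or batch, and no pairing was used. With only mice 1 and 7 of each diet, at least 2 more HFrD mice held 0 regions of the axis and 88 of all genes. At least 2 more ND mice held 2 regions and 373 genes. Among these mice Bcl6 differed by 0, Stat5b exon 2 by 1 and Stat5b exon 9 by -2. Igfals differed by 1 mouse in the full lists and by -2 once peaks needed a fold enrichment of 5. Leaving out each mouse in turn compares 3 mice with 4, which by itself raises the counts on the side of the other diet. It gave differences of -1.08 to -0.417 for genes of the axis and of -1.25 to 0.167 for its peaks (0.167 without HFrD mouse 7), 1 to 5 regions in at least 2 more HFrD mice and 1 to 5 in at least 2 more ND mice, and of all genes 137 to 725 for HFrD and 357 to 1486 for ND. The most HFrD regions came without ND mouse 3, 1 HFrD region was left without any one of the HFrD mice, and the fewest ND regions came without ND mouse 1. Ghr ranged between -2 and -1 (-1 without ND mouse 1 or 7), Bcl6 between -3 and -1 (-1 without ND mouse 1, 3 or 6), Stat5b exon 2 between 2 and 3 and Stat5b exon 9 between -3 and -2. Of 156 values of named genes and exons under the alternatives, 100 were equal to the value as reported, 55 changed without a reversal and 1 was reversed. Part of the 100 could not change, because Socs2 and Cux2 had no peak in any list. The 12 values at a fold enrichment of at least 3 were fixed too, because the lowest fold of the axis was 3.37. The 100 is therefore not a measure of stability. The share of midpoints in the coding sequence was 50.9% by the exonic midpoint, GGACT was in 29.4% of regions reduced to shared bases, and the median percentile by fold enrichment was 38.3.

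Presence in 4 mice of each diet is a coarse measure, and a score near 50 is close to the limit of the lists. No peak of the axis had a deposited false discovery rate below 56%, and this rate was not compared with that of other peaks. Depth, input levels and replicate sequencing of a mouse were not analysed here, and most peaks are resolved only to their exon. Stat5a and Stat5b reads cannot be told apart where their sequences are identical.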
